A study of Mus musculus musculus x Mus musculus castaneus with 12 samples.

Results

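The genes described here encode 31 lysosomal proteins, comprising soluble hydrolases, cholesterol carriers, membrane glycoproteins and a channel. They are 31 of the 24346 genes in the RNA-seq files of a Kdm6a knockout (KO) study in mouse embryonic stem (ES) cells, and all 31 were found by symbol. The members were chosen because of Naglu, whose level, in earlier results from these same libraries, was higher in KO clones of one cross and lower in those of the reciprocal cross, and the question is whether the other 30 genes moved with it. Naglu was thus chosen by its own values, which are given as a description with no test.

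Kdm6a is an X-linked histone demethylase gene that escapes X inactivation. The ES cells were F1 hybrids, either BC (C57BL/6J, BL6, mother and Mus castaneus, cast, father) or CB (the reciprocal cross), so that SNPs separate the alleles. Unedited (wt) cells gave 2 libraries from each of a male BC, a female BC and a male CB line. Male KO cells gave 3 clones per cross, named ΔP4, ΔE1 and ΔE3 in BC and ΔP2.1, ΔE2.5 and ΔE2.7 in CB, with 1 library each, so that there were 5 groups. ΔE denotes an exonic and ΔP a promoter deletion of Kdm6a. ΔE1 and ΔE3 derive from the same editing event and share an off-target deletion of other X-linked genes, so that they are not independent clones, and the CB wt line carries an actin-GFP transgene. The female cells are a single line, so sex and line cannot be told apart, and neither can cross and line. Cells were kept with LIF and serum on inactivated fibroblast feeders, which were depleted by attachment to gelatin. The study's methods call the wt libraries of a line biological replicates without saying whether they came from separate cultures, and p-values measure only the spread between these libraries, which may be partly technical.

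Lysosomes are acidic compartments in which hydrolases take apart glycosaminoglycans, glycolipids, glycogen, proteins and lipids. Most soluble hydrolases reach them through mannose phosphate tags added in the Golgi, while membrane proteins such as Lamp1 and Lamp2 line the organelle and a proton pump, the V-ATPase, acidifies it. Transcription factors of the MiT family, Tfeb and Tfe3 among them, are known to switch on many lysosomal genes together, and loss of a single hydrolase causes a storage disease.

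The 4 guide RNA targets that made the deletions are shown because each clone below was made with either the ΔE or the ΔP design. They are written 5′ to 3′ in lower case with the PAM in capitals.
ΔE left: gaaacctcacgaacccgaaaAGG
ΔE right: tagcattatctgcataccagAGG
ΔP left: ggacactgcatgtttgatggAGG
ΔP right: agctacatactccaaaggagAGG
The ΔE left guide matched exon 2 of Kdm6a at chrX:18163390-18163409 (mm10, minus strand), and the other guides matched no annotated Kdm6a exon and were not placed here.

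Libraries held 49975599 to 89070402 fragments, with CB libraries (at most 53407103) shallower than BC libraries (at least 68457338). A member had 69 to 34073 fragments in a library, so counting error was small for most members. Levels are given as FPKM, fragments per kilobase of transcript scaled for depth, with TMM factors over all 12 libraries. Kdm6a itself was at 19.1 and 19.9 FPKM in BC wt and 18.5 and 18.9 in CB wt. In KO clones it was at 4.42 (ΔE1), 5.16 (ΔE3), 0.0159 (ΔP4), 0.788 (ΔE2.5), 2.80 (ΔE2.7) and 0.0138 (ΔP2.1), below wt in every clone. The study reports that ΔE clones kept some RNA from exons after the deletion. Its Western blots, described in the methods for ΔE1 and ΔE3, showed complete loss of the protein. ES cell markers were high in every library, Pou5f1 at 756.5 FPKM or more.

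Several libraries stood apart in ways that touch lysosomal genes. On chromosome 8, which holds 5 members (Galns, Asah1, Man2b1, Lamp1 and Mcoln1), the median gene was at a log2 ratio to wt of -0.48 in ΔE1 and -0.51 in ΔE3. The median BL6 share of SNP fragments on that chromosome was 62.0% and 62.1% in BC wt and 62.9% in ΔP4, against 47.0% in ΔE1 and 47.2% in ΔE3, which were close to CB wt (47.9% and 47.6%) and the female line (48.6% and 49.0%). Shares here are adjusted for the library's overall ratio of BL6 to cast fragments. Clone ΔP2.1 stood apart in its alleles across the genome. Of 7692 autosomal genes outside chromosomes 1 and 8, 7.80% had a BL6 share more than 15 points from the CB wt mean in ΔP2.1, against 0.767% in ΔE2.5, 0.702% in ΔE2.7 and 0.559% between the CB wt replicates. Results are therefore also given clone by clone, and with ΔP2.1 or ΔP4 left out.

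**Figure D1:**
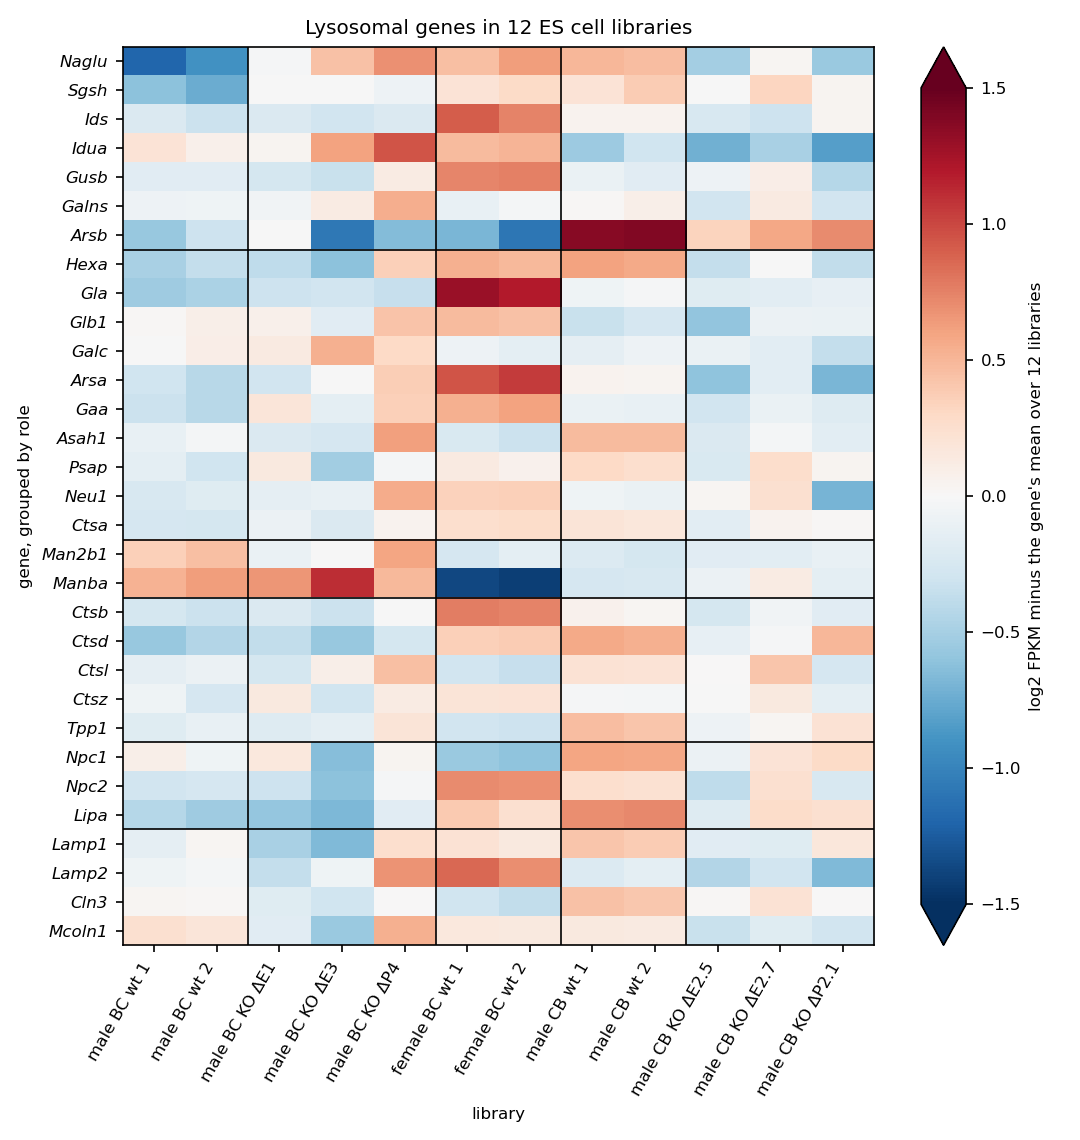
Levels of the 31 lysosomal genes (rows, grouped by role) in the 12 libraries (columns, grouped by cross, sex and genotype), as log2 FPKM less the gene's own mean over the 12 libraries. Naglu is lowest in the male BC wt libraries, Manba is lowest and Gla highest in the female libraries, and Arsb is highest in the CB wt libraries.

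The label held for Naglu, the N-acetylglucosaminidase of heparan sulfate breakdown. Its level was 0.842 and 1.02 FPKM in male BC wt, and 1.90 (ΔE1), 2.62 (ΔE3) and 3.08 (ΔP4) in BC KO. In CB wt it was 2.71 and 2.65 FPKM, and in CB KO 1.35 (ΔE2.5), 1.96 (ΔE2.7) and 1.31 (ΔP2.1). Groups did not overlap in either cross, and the direction was opposite, with a log2 difference between KO and wt of 1.44 ± 0.28 (SE) in BC and -0.79 ± 0.23 in CB. The female BC wt libraries, at 2.62 and 2.98 FPKM, lay near CB wt and ΔP4 and above male BC wt. The low end of the Naglu range was thus male BC wt, and the KO clones of both crosses lay between the wt extremes or above them. Naglu lies at chr11:101070012-101077672 (mm10, plus strand), and its BL6 share rested on as few as 19 SNP fragments in a library, so that allele shares between 28.2% and 45.0% over all 12 libraries are imprecise.

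The other glycosaminoglycan enzymes did not repeat this pattern as a group in BC. Sgsh, the sulfamidase acting in the same heparan sulfate pathway, had the largest difference of the 30 in BC, with 0.661 and 0.601 FPKM in wt and 1.01 (ΔE1), 1.00 (ΔE3) and 0.960 (ΔP4) in KO. Every KO clone lay above both wt libraries, 1.57-fold on average (log2 0.65 ± 0.21, unadjusted p = 0.0168, adjusted p = 0.362 by edgeR). In CB, Sgsh was at 1.17 and 1.32 FPKM in wt and 1.01, 1.26 and 1.04 in KO, with overlapping groups and a log2 difference of -0.16 ± 0.18. Sgsh shares exon sequence with Card14, and the libraries were not stranded, so reads of the pair cannot be told apart.

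Idua, the iduronidase, was at 3.23 and 2.96 FPKM in BC wt and 2.88 (ΔE1), 4.27 (ΔE3) and 5.42 (ΔP4) in BC KO, so that ΔE1 overlapped wt (log2 0.43 ± 0.26, adjusted p = 0.587). Ids, the iduronate sulfatase, had a log2 difference of 0.03 ± 0.13 in BC and -0.20 ± 0.13 in CB. Gusb, beta-glucuronidase, differed by 0.02 ± 0.17 in BC and 0.03 ± 0.17 in CB. Galns, a sulfatase of keratan sulfate breakdown, differed by 0.30 ± 0.22 and -0.17 ± 0.19.
Arsb, the sulfatase of dermatan sulfate breakdown, showed no higher group in BC, with 0.349 and 0.416 FPKM in wt and 0.515, 0.246 and 0.331 in ΔE1, ΔE3 and ΔP4. In CB it was at 1.33 and 1.36 FPKM in wt and 0.652 (ΔE2.5), 0.773 (ΔE2.7) and 0.844 (ΔP2.1) in KO. All CB KO clones were below wt, at 0.565-fold (log2 -0.82 ± 0.18, unadjusted p = 0.00444, adjusted p = 0.143 by edgeR and 0.0099 by DESeq2). Of the glycosaminoglycan enzymes other than Naglu, Arsb was the one with the largest difference in CB and the lowest level in the BC libraries.

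**Figure D2:**
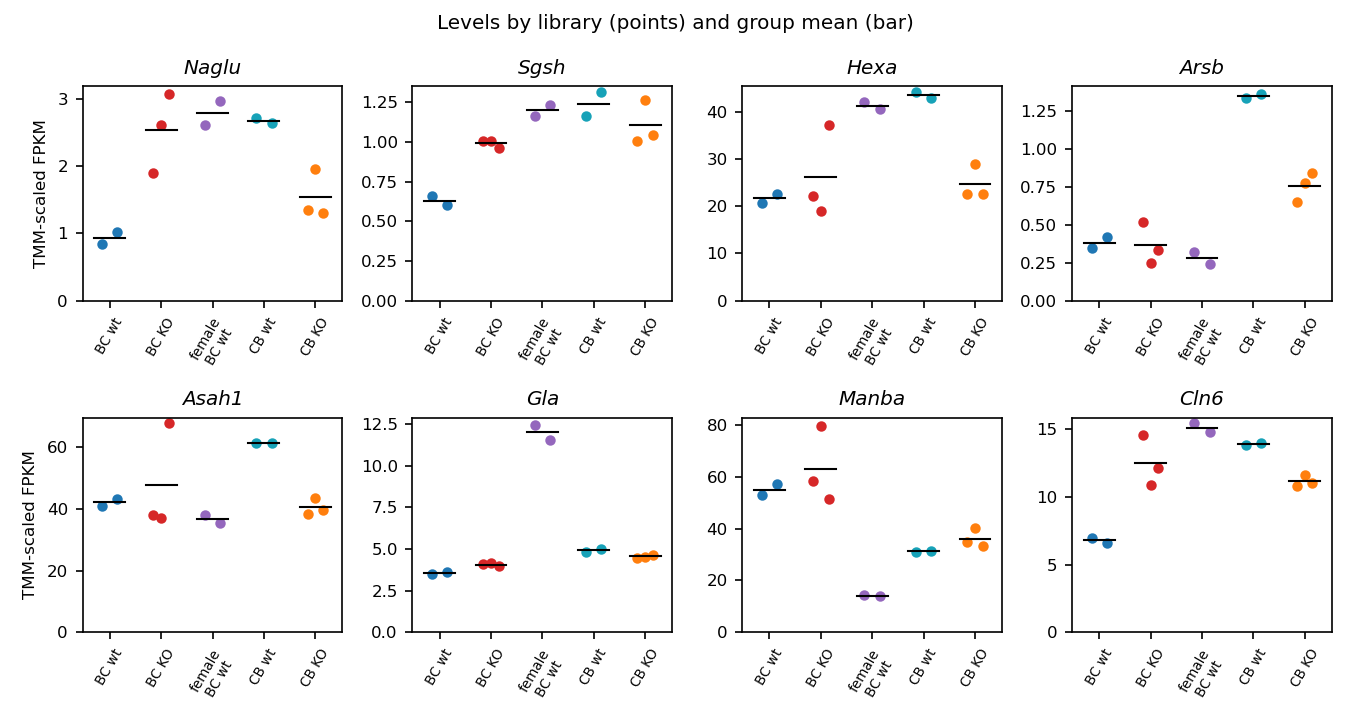
TMM-scaled FPKM (y axis, from 0) of 7 lysosomal members and Cln6 in each library (points, by group) with the group mean (bar). Naglu and Cln6 are lowest in male BC wt, Hexa and Asah1 are higher in clone ΔP4 than in the other BC clones, and Arsb, Hexa and Asah1 are lower in all CB KO clones than in CB wt.

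In the BC cross none of the 30 members besides Naglu, which was not tested, was called by edgeR or by DESeq2, where a call means an adjusted p below 0.05 together with a change of at least 1.5-fold. In that comparison 0.029% of 13805 genes were called in either direction by edgeR, and DESeq2 called 1.12% higher and 0.761% lower. At an unadjusted p of 0.05, 2 of 30 members were higher in KO, Sgsh and Gaa, against 6.56% of all genes, and 0 were lower, against 4.49%. The median log2 difference of the 30 members was 0.14 against 0.01 over all genes tested, and 23 were above 0 (51.6% of all genes). In 8 members all KO clones lay above both wt libraries (17.3% of all genes) and in 1 below (14.8%). The count of members higher at an unadjusted p of 0.05 was 4 with ΔE1 and ΔE3 averaged into 1 sample (8.87% of all genes). Without ΔE1, 22 members were above 0, and without BC wt replicate 1 or 2, 23 and 22 were (median over all genes 0.01 in each).

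Gaa, the acid glucosidase that breaks down glycogen, was at 16.7 and 15.7 FPKM in BC wt and 23.6 (ΔE1), 18.9 (ΔE3) and 26.6 (ΔP4) in KO. Its groups did not overlap (log2 0.51 ± 0.16, unadjusted p = 0.0166, adjusted p = 0.362), whereas in CB it differed by -0.08 ± 0.08. Arsa, arylsulfatase A, was at 4.62 and 4.24 FPKM in BC wt and 4.66, 5.66 and 7.34 in ΔE1, ΔE3 and ΔP4, a log2 difference of 0.41 ± 0.21 (adjusted p = 0.518). Galc, the galactosylceramidase, differed by 0.28 ± 0.17 (adjusted p = 0.583). Gaa and Galc were higher in each BC KO clone than in both wt libraries, while ΔE1 exceeded the higher wt library of Arsa only slightly.

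The BC clones differed among themselves. The median log2 ratio of the 30 members to the wt mean was 0.05 in ΔE1, -0.05 in ΔE3 and 0.31 in ΔP4, and 18, 12 and 27 members were above the wt mean. ΔP4 was the highest of the 5 male BC libraries for 20 of 30 members, against 25.7% of all genes, while ΔE1 was the highest for 6 (18% of all genes) and ΔE3 for 3 (27%). Hexa, the alpha subunit of hexosaminidase, is an example, with 37.2 FPKM in ΔP4 against 22.2 in ΔE1, 18.9 in ΔE3, and 20.8 and 22.7 in wt. Lamp2 was at 26.5 FPKM in ΔP4 and 12.9 to 16.3 in the other male BC libraries, and Neu1, the sialidase, at 18.4 in ΔP4 and 10.6 to 11.5 in the others. Without ΔP4 the members' median was 0.02, with 16 above 0, and at an unadjusted p of 0.05 2 members were higher (8.63% of all genes) and 3 lower (9.12%). ΔP4 is 1 library, so the promoter design and this clone cannot be told apart.

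Of the 5 members on chromosome 8, Lamp1, Mcoln1 and Man2b1 were near the level of that chromosome in the ΔE clones, while Asah1 (log2 ratio -0.14 in ΔE1 and -0.18 in ΔE3) and Galns (0.01 and 0.19) lay above it. The median of the 5 log2 ratio to wt was -0.38 in ΔE1, -0.40 in ΔE3 and 0.32 in ΔP4. Lamp1, a major membrane glycoprotein of the lysosome, was at 131 and 147 FPKM in BC wt, 103 in ΔE1, 91.2 in ΔE3 and 172 in ΔP4. Mcoln1, the calcium channel mucolipin, was at 18.1 and 17.3 FPKM in wt, 13.6 in ΔE1, 10.4 in ΔE3 and 22.2 in ΔP4. Man2b1, the lysosomal alpha-mannosidase, was at 18.9 and 20.1 in wt, 13.8 in ΔE1, 14.7 in ΔE3 and 22.3 in ΔP4. Each of these 3 was below wt in both ΔE clones and above it in ΔP4. After subtraction of each chromosome's median, the 30 members' medians were 0.06, 0.00 and 0.30 in ΔE1, ΔE3 and ΔP4, and without the chromosome 8 members 0.07, -0.02 and 0.29, so the difference between ΔP4 and the ΔE clones was also present outside chromosome 8.

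**Figure D3:**
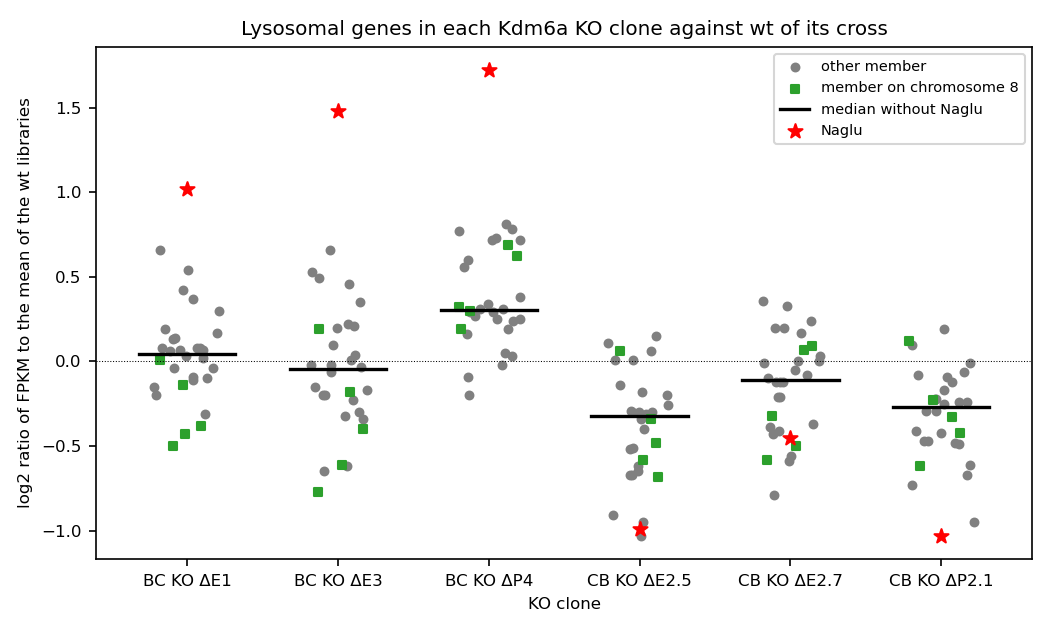
Log2 ratio of FPKM in each KO clone (x axis) to the mean of the wt libraries of its cross (y axis) for the 30 members other than Naglu (points, those on chromosome 8 as squares), their median (bar) and Naglu (star). Naglu lies above all other members in each BC clone, while the medians are 0.05, -0.05 and 0.31 in BC and -0.32, -0.11 and -0.27 in CB.

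In the CB cross most members were lower in KO than in wt, although edgeR called none of them. The CB wt libraries were close to each other, with a median chi-square of their counts of 0.699 per gene, against 7.27 to 11.4 between CB KO clones. The median log2 difference of the 30 members was -0.22 against 0.01 over all genes tested, with 24 below 0 (48.8% of all genes). At an unadjusted p of 0.05, 10 of 30 were lower, against 10.5% of 13801 genes, and 0 higher, against 10%. In 16 members all KO clones lay below both wt libraries (24.5% of all genes) and in 2 above (22.1%). In this comparison edgeR called 0% of genes, while DESeq2 called 2.41% of them lower, with Hexa, Arsb and Asah1 among them, and 1.17% higher, with no member among them. Psap, the precursor of the saposins, differed by -0.23 ± 0.15 and Glb1, beta-galactosidase, by 0.06 ± 0.17. Neu1 was at 12.7, 14.8 and 7.72 FPKM in ΔE2.5, ΔE2.7 and ΔP2.1, on either side of the wt values of 12 and 11.6.

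Asah1, the acid ceramidase, had the smallest p. It was at 61.4 and 61.3 FPKM in CB wt and 38.2 (ΔE2.5), 43.4 (ΔE2.7) and 39.8 (ΔP2.1) in KO. The KO clones were below both wt libraries, at 0.663-fold (log2 -0.59 ± 0.08, unadjusted p = 4.70e-04, adjusted p = 0.12 by edgeR and 2.19e-06 by DESeq2). Hexa was at 44.2 and 43.0 FPKM in wt and 22.6, 28.9 and 22.5 in ΔE2.5, ΔE2.7 and ΔP2.1. This was 0.569-fold (log2 -0.81 ± 0.13, adjusted p = 0.126 by edgeR and 5.21e-05 by DESeq2). Both enzymes act on sphingolipids.

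Among the membrane proteins, Mcoln1 was at 16.9 and 16.8 FPKM in CB wt and 12.1, 13.5 and 12.6 in KO (log2 -0.40 ± 0.09, unadjusted p = 0.00515, adjusted p = 0.149 by edgeR and 0.00949 by DESeq2). Lamp1 was at 193 and 188 FPKM in wt and 128, 127 and 162 in KO (-0.45 ± 0.13, adjusted p = 0.172 by edgeR and 0.0393 by DESeq2). Both changed by less than 1.5-fold, so DESeq2 did not call them. Cln3, the Batten disease membrane protein, was at 15.6 and 15.3 in wt and 11.7, 13.3 and 11.6 in KO (-0.33 ± 0.10, adjusted p = 0.18 by edgeR and 0.0709 by DESeq2). These 3 were below both wt libraries in every CB clone, and Lamp2 differed by -0.27 ± 0.12 (adjusted p = 0.29). Cln3 was also the only member below wt in all KO clones of both crosses (2.73% of 13305 genes tested in both), with 11.8 and 11.7 FPKM in BC wt and 10.2, 9.38 and 11.6 in BC KO.

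Of the proteases, Tpp1, the tripeptidyl peptidase, was at 24.7 and 24 FPKM in CB wt and 17, 18.3 and 20.9 in KO (log2 -0.37 ± 0.10, unadjusted p = 0.0119, adjusted p = 0.169). Ctsd, the aspartic protease cathepsin D, was at 166 and 162 FPKM in wt, 103 in ΔE2.5, 111 in ΔE2.7 and 157 in ΔP2.1. Both ΔE clones were lower than ΔP2.1, which lay just under wt (group difference -0.40 ± 0.19, adjusted p = 0.302). Ctsb, Ctsl and Ctsz, which are cysteine cathepsins, differed by -0.20 ± 0.09, -0.12 ± 0.20 and 0.03 ± 0.10. For the cholesterol genes, Npc1 was at 14.6 and 14.4 FPKM in wt and 9.09, 11.1 and 11.8 in KO (-0.43 ± 0.12, adjusted p = 0.173), and Lipa, the acid lipase, differed by -0.58 ± 0.17 (adjusted p = 0.177). Npc2, the soluble cholesterol carrier, differed by -0.33 ± 0.19, with ΔE2.7 at 49.1 FPKM inside the wt values of 49.6 and 48.8. Manba, the beta-mannosidase, and Man2b1 went the other way, with differences of 0.22 ± 0.10 and 0.09 ± 0.07, and neither passed the test.

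The medians of all CB clones were below 0. The members' median log2 ratio to wt was -0.32 in ΔE2.5, -0.11 in ΔE2.7 and -0.27 in ΔP2.1, with 24, 20 and 27 members below the wt mean. ΔE2.5 was the lowest of the 5 CB libraries for 16 members (22.3% of all genes), ΔP2.1 for 10 (23.5%) and ΔE2.7 for 2 (24.7%). Without ΔP2.1, the clone with the divergent alleles, edgeR called Arsb, Hexa and Ctsd lower (3 of 30, against 4.13% of all genes) and none higher (2.63%), and 11 members were lower at an unadjusted p of 0.05 (17.9% of all genes). Without ΔE2.7 the members' median was -0.33 (-0.00 over all genes), with 28 members below 0. With CB wt replicate 1 or 2 left out, 24 and 26 members were below 0 (median over all genes 0.01).

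Markers of other cell types also differed between CB KO and wt, though not in the same way in every clone. The summed level of 13 fibroblast markers, led by Tagln and Acta2, was 907 and 890 FPKM in CB wt, 253 in ΔE2.5, 470 in ΔE2.7 and 1009 in ΔP2.1, against 14 to 87.9 in the BC libraries. The sum in ΔP2.1 was the highest of all libraries. Gene by gene, 11 of the 12 fibroblast markers tested had a log2 difference below 0 (48.8% of all genes), with a median of -0.61. At an unadjusted p of 0.05, 2 were lower (10.5% of all genes), and none was called. In 5 of them all 3 clones lay below wt, ΔP2.1 included (24.5% of all genes). The sum of 10 ES cell markers was 1813 and 1833 FPKM in CB wt and 2176 to 2260 in CB KO, and that of 12 extraembryonic endoderm markers 21.6 to 21.9 in wt and 14.1 to 17.4 in KO. Ttr was at 0 in every library, and 7 macrophage markers summed to at most 1.58 FPKM in any library. The part of feeders or of differentiating cells in the result was not tested, and in bulk RNA fewer cells of a type and less RNA per cell cannot be told apart.

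The test of the difference between crosses (BC effect minus CB effect) called no member by edgeR, in a comparison in which 0.014% of 14298 genes were called higher and 0.049% lower. The median difference of the 30 members was 0.36 on the log2 scale against 0.01 over all genes, and 28 were above 0 (51.3% of all genes). At an unadjusted p of 0.05, 7 members were higher (9.2% of all genes) and 0 lower (7.55%). Averaging ΔE1 with ΔE3 gave 11 members higher at that p (10.9% of all genes). With each library left out in turn, the members' median ranged from 0.26 without ΔP4 to 0.46 without ΔE3. Without ΔP4, 25 members were above 0, and without ΔP2.1, 27 were. Sgsh had the smallest p (0.82 ± 0.26, adjusted p = 0.185 by edgeR and 0.0432 by DESeq2) and was the only member that DESeq2 called, against 2.49% of all genes called higher. Hexa followed with 1.09 ± 0.35 (adjusted p = 0.194), then Arsa with 0.92 ± 0.30 (0.194) and Gaa with 0.60 ± 0.19 (0.195). For comparison, the difference of Naglu was 2.24 ± 0.37.

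The pattern of Naglu, every KO clone above wt in BC and every one below wt in CB, was met by 3 of the 30 others, against 4.77% of the 13305 genes tested in both crosses, and the opposite pattern by none (4.16%). The 3 were Gla, Arsa and Ctsa. Gla, the alpha-galactosidase, was at 3.49 and 3.64 FPKM in BC wt against 4.07, 4.13 and 3.99 in KO, and at 4.83 and 5.00 in CB wt against 4.46, 4.52 and 4.66 in KO. Ctsa, which protects Neu1 and Glb1, was at 18.4 and 18.3 FPKM in BC wt against 20.6, 18.8 and 22.7 in KO, and at 25.0 and 24.6 in CB wt against 19.6, 22.8 and 22.1 in KO. Arsa was at 5.87 in both CB wt libraries and at 3.74, 5.07 and 3.53 in KO. Their differences between crosses were 0.30, 0.92 and 0.38 for Gla, Arsa and Ctsa, and none passed the test. A log2 difference above 0 in BC and below 0 in CB was found in 18 of 30 members and in 26.8% of all genes.

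**Figure D4:**
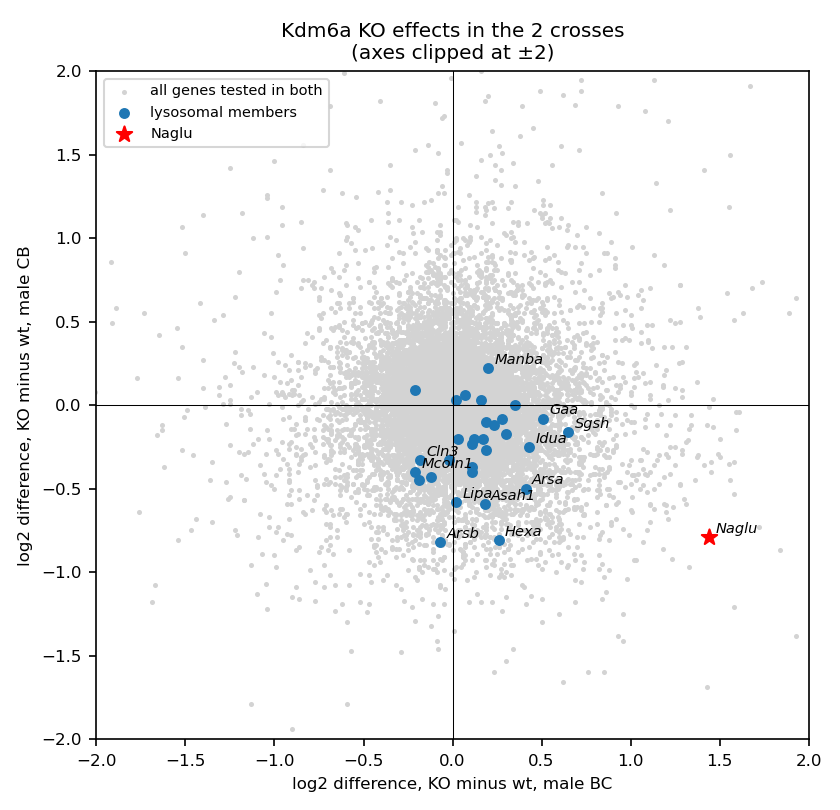
Log2 difference between Kdm6a KO and wt in male BC (x axis) and male CB cells (y axis), with all 13305 genes tested in both in grey, the 30 members as points and Naglu as a star. The axes are clipped at ±2, most members lie below 0 on the y axis, and Naglu, at 1.44 and -0.79, lies far to the right of them.

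Other lysosomal genes were described in the same way in CB, where 10.5% of all genes were lower and 10% higher at an unadjusted p of 0.05 and 24.5% lay below wt without overlap. Of 27 further hydrolases tested, none was called by edgeR, 8 were lower at an unadjusted p of 0.05 and 0 higher, and the median was -0.27. Among them the protease gene Ctsc differed by -0.87 ± 0.15 (log2, adjusted p = 0.13). Of 22 further membrane proteins 7 were lower and 2 higher at that p, with a median of -0.22, led by the sialic acid exporter gene Slc17a5 (-0.56 ± 0.13, adjusted p = 0.149) and Cd63 (-0.48 ± 0.12, adjusted p = 0.162). Of 16 V-ATPase genes 7 were lower and 0 higher, with a median of -0.22, led by Atp6ap2 (-0.34 ± 0.07, adjusted p = 0.134) and Atp6v0b (-0.40 ± 0.09, adjusted p = 0.149). In 13 of the 16 V-ATPase genes all CB KO clones lay below both wt libraries. DESeq2 called Ctsc (adjusted p = 2.96e-04) and the V-ATPase accessory gene Atp6ap1 (log2 -0.59 ± 0.17, adjusted p = 0.0366) lower, and no other gene of these 3 lists. Over all genes it called 2.41% lower and 1.17% higher.

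For genes that control or supply lysosomes the median in CB was 0.05 over 18 MiT and nutrient-sensing genes (3 higher and 2 lower at an unadjusted p of 0.05), 0.04 over 13 mannose phosphate sorting and maturation genes (1 higher and 3 lower) and -0.09 over 11 autophagy genes (0 higher and 2 lower, with 9 of the 11 below 0). The difference between lists was not tested. Tfe3 was at 42.0 and 40.8 FPKM in CB wt and 53.9, 50.1 and 55.2 in KO (log2 0.37 ± 0.07, adjusted p = 0.137), and Fnip1 differed by -0.45 ± 0.09 (adjusted p = 0.137). The sorting receptor genes Sort1 and Igf2r differed by -0.56 ± 0.10 and -0.52 ± 0.11 (adjusted p = 0.13 and 0.14), and the autophagy genes Gabarap and Map1lc3b by -0.29 ± 0.09 and -0.32 ± 0.11 (adjusted p = 0.179 and 0.201).

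In BC the medians of these 6 lists were 0.14 for hydrolases, 0.08 for membrane proteins, 0.06 for the V-ATPase, 0.06 for MiT and nutrient-sensing genes, 0.01 for sorting and maturation genes and 0.17 for autophagy genes. No gene in them was called by edgeR (0.029% of all genes). DESeq2 called 1 of 13 sorting and maturation genes, Cln6, and 1 of 11 autophagy genes, Wipi1, higher. It called no gene of the other lists, and over all genes it called 1.12% higher and 0.761% lower. Cln6, an endoplasmic reticulum protein needed for the transfer of lysosomal enzymes to the Golgi, was at 6.94 and 6.62 FPKM in BC wt and 14.6 (ΔE1), 10.9 (ΔE3) and 12.1 (ΔP4) in KO (log2 0.88 ± 0.17, adjusted p = 0.301 by edgeR and 7.73e-04 by DESeq2). In CB it was at 13.8 and 14 FPKM in wt and 10.8, 11.7 and 11.1 in KO (-0.31 ± 0.09, adjusted p = 0.173), and in female BC wt at 15.4 and 14.8, so its groups were ordered like those of Naglu. Wipi1, an autophagy protein that binds membrane lipids, was at 1.83 and 1.66 in BC wt and 3.23, 3.48 and 4.06 in KO (log2 1.04 ± 0.20, adjusted p = 0.301 by edgeR and 4.35e-04 by DESeq2).
The smallest p otherwise were those of the hydrolases Ctsh (1.22 ± 0.36, adjusted p = 0.353) and Arsg (1.18 ± 0.40, adjusted p = 0.383), the membrane proteins Cd68 (0.68 ± 0.20, adjusted p = 0.352) and Scarb2 (0.34 ± 0.14, adjusted p = 0.432) and the V-ATPase genes Atp6v1a (0.30 ± 0.11, adjusted p = 0.386) and Atp6v0a1 (0.28 ± 0.12, adjusted p = 0.455). Tfeb was at 19.4 and 19.5 FPKM in BC wt and 21.4, 46.2 and 27.6 in ΔE1, ΔE3 and ΔP4 (0.71 ± 0.31, adjusted p = 0.455), and the nutrient-sensing GTPase gene Rragd differed by -0.54 ± 0.12 (adjusted p = 0.307 by edgeR and 0.00243 by DESeq2). Of the male BC libraries, ΔE3 had the lowest summed member level, 772 FPKM, and ΔP4 the highest, 1062. Within these sums Lamp1, on chromosome 8, was at 91.2 FPKM in ΔE3 and 131 and 147 in BC wt. The sum of 10 ES cell markers was instead highest in ΔE3, 3180 FPKM, and lowest in ΔP4, 2340. It was 2900 in ΔE1, and 2738 and 2625 in BC wt. DESeq2 called 4 of these 10 markers higher in BC KO (1.12% of all genes), and edgeR called none. The sum of 13 fibroblast markers was 14.01 in ΔE3, 51.01 in ΔP4 and 87.91 in ΔE1, against 66.11 and 66.45 in wt. The relation of Tfeb or of these markers to the level of the members was not tested.

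The wt lines were also compared with each other. These comparisons use the same wt libraries as the KO comparisons. Between male BC wt and CB wt, edgeR called 2 of 30 members higher in BC (14.7% of all genes) and 6 lower (19.8%), with a median of -0.38 against 0.01 over all genes. The 6 were Arsb (log2 -1.83 ± 0.12, adjusted p = 2.68e-05), Lipa (-1.20 ± 0.07, 1.38e-05), Ctsd (-1.07 ± 0.06, 1.19e-05), Hexa (-1.02 ± 0.06, 1.43e-05), Sgsh (-0.99 ± 0.11, 2.79e-04) and Tpp1 (-0.60 ± 0.05, 6.83e-05). Manba (0.81 ± 0.05, 2.78e-05) and Man2b1 (0.62 ± 0.05, 8.25e-05) were higher in BC. Man2b1 lies on chromosome 8, and the median BL6 share of the 64 genes within 5 Mb of it was 63.5% and 63.9% in BC wt, 48.2% and 49.0% in CB wt and 30.6% in both female libraries. The part of this difference in the calls of Man2b1 was not tested. Of 12 fibroblast markers tested in the same comparison, 10 were called lower in BC wt. The summed level of all 31 members was 817 and 838 FPKM in BC wt, 1100 and 1083 in CB wt, 812 to 961 in CB KO, and 1023 and 1045 in female BC wt. The CB KO sums thus lay below those of CB wt, and ΔE2.5, the lowest of them, also below both BC wt libraries.

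Female and male BC wt differed in 15 of 30 members by edgeR, with 12 higher in the female line (24.5% of all genes) and 3 lower (19.9%). The X-linked members Gla, Ids and Lamp2 were all higher in the female line. Gla was at 12.5 and 11.6 FPKM against 3.49 and 3.64 (log2 1.73 ± 0.08, adjusted p = 1.08e-08), Ids at 8.10 and 7.23 against 3.70 and 3.45 (1.08 ± 0.08, 4.68e-07), and Lamp2 at 30.1 and 26.8 against 15.9 and 16.3 (0.80 ± 0.08, 3.20e-06). The alleles of these 3 genes differed in the female line. The BL6 share was 53.6% and 47.6% for Ids and 56.7% and 57.2% for Lamp2, but 1.98% and 0.596% for Gla, whose unadjusted share had 95% Wilson intervals of 0.65% to 4.21% over 240 SNP fragments and 0.0879% to 2.76% over 201. The median of 29 genes within 5 Mb of Gla was 56.8% and 57.1%, so the near absence of BL6 fragments was not shared by its neighbours.

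Of the autosomal members, Arsa (1.33 ± 0.08, adjusted p = 7.56e-08), Ctsb (1.03 ± 0.07, 1.52e-07), Npc2 (0.94 ± 0.06, 2.47e-07), Gaa (0.92 ± 0.07, 6.19e-07), Sgsh (0.90 ± 0.12, 3.14e-05), Hexa (0.90 ± 0.08, 1.01e-06), Gusb (0.89 ± 0.07, 5.92e-07), Ctsd (0.85 ± 0.07, 1.21e-06) and Lipa (0.78 ± 0.09, 2.02e-05) were also higher in the female line. Manba had the largest difference of the 30 members, at 14.3 and 13.9 FPKM against 53.1 and 57.3 in male BC wt (log2 -1.99 ± 0.07, adjusted p = 3.02e-09). Npc1 (-0.62 ± 0.08, 2.26e-05) and Man2b1 (-0.62 ± 0.07, 1.88e-05) were lower as well. Markers of other cell states moved in this comparison too. Of the ES cell markers 4 of 10 were called higher in the female line (median 0.41), of the endoderm markers 5 of 8 higher and 2 lower (median 1.04), and of the fibroblast markers 3 of 10 higher and 5 lower (median -0.81). The summed endoderm level was nonetheless 11.5 and 13.0 FPKM in the female line, below 13.4 and 13.5 in male BC wt. The ES cell and fibroblast sums went the same way as their medians. Their part in the result was not tested. Ctsl had nearly equal totals, 102 and 98.1 FPKM against 113 and 117, but BL6 shares of 2.1% and 1.9% in the female line against 46.9% and 46.2% in male BC wt. Its neighbours within 5 Mb had a median of 35.5% and 38.7% in the female line, so Ctsl stood apart from them too.

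Alleles could be tested for 26 members, those on autosomes with at least 20 SNP fragments in every library. Arsa had no SNP fragment in any library. In male wt libraries of both crosses together, edgeR called 1 member higher on the BL6 allele and 4 lower, in a comparison in which 31.1% of 10466 genes were called and the median over all genes was -0.18. With TMM scaling, which sets that median to about 0, it called 6 higher and 4 lower (29.5% of all genes). Relative to that shift, Manba was the clearest case of a higher BL6 allele, with a log2 difference of 1.34 ± 0.03 and BL6 shares of 74.2% and 74.6% in BC wt and 69.0% and 68.6% in CB wt. Ctsb was the clearest case of a higher cast allele (-1.30 ± 0.04, adjusted p = 9.15e-287), with shares of 24.6% and 24.8% in BC wt and 33.7% and 33.4% in CB wt. In the KO clones Manba was at 65.9% or more and Ctsb at 30.4% or less, so the more abundant allele was the same in all male libraries. Sgsh was lower on the BL6 allele (-0.79 ± 0.15, adjusted p = 4.37e-07), as was Galc (-1.44 ± 0.11, 1.29e-41). Npc1 was called lower over both crosses (-1.42 ± 0.05, 1.03e-173), but its more abundant allele was BL6 in BC wt and cast in CB wt.

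The shares of Npc1 and Galc differed between the crosses and between CB clones. Npc1 had a BL6 share of 55.2% and 56.7% in BC wt, 10.3% and 9.37% in CB wt, 9.93% in ΔE2.5 and 11.6% in ΔE2.7, but 45.5% in ΔP2.1 (unadjusted 95% Wilson interval 45.8% to 51.7% over 1095 SNP fragments). The 22 genes within 5 Mb of Npc1 moved with it, their median being 22.6% and 22.4% in CB wt and 46.0% in ΔP2.1. Galc was at 17.2% and 20.1% in CB wt and 40.9% in ΔP2.1, and Glb1 at 31.8% and 35.1% in CB wt and 62.9% in ΔP2.1, while the medians of their neighbours were 42.9% and 43.4% against 49.2%, and 44.1% and 44.3% against 48.9%. On chromosome 8 the shift was in the other direction, with Asah1 at 50.3% and 51.0% in CB wt and 19.4% in ΔP2.1, Man2b1 at 49.6% and 57.9% against 29.0%, and Mcoln1 at 50.1% and 47.1% against 22.8%. These 6 members were the ones of 26 whose share in ΔP2.1 lay more than 15 points from the CB wt mean, against 9.91% of all 8695 autosomal genes in that clone. The count was 0 in ΔE2.5 (3.28% of genes), 1 in ΔE2.7 (Idua, 3.83%) and 1 between the CB wt replicates (Galns, 0.575%). No member lies on chromosome 1, where the median log2 ratio to wt was 0.51 in ΔE2.5 and 0.43 in ΔE2.7. The median BL6 share there was 63.2% and 32.4%, against 48.3% and 48.2% in CB wt. Outside chromosomes 1 and 8 the shares of shifted genes were 7.80% in ΔP2.1, 0.767% in ΔE2.5 and 0.702% in ΔE2.7. The total level of Npc1 in ΔP2.1, 11.8 FPKM, was near that of ΔE2.7, and the level of Asah1, 39.8, lay between those of the ΔE clones.

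**Figure D5:**
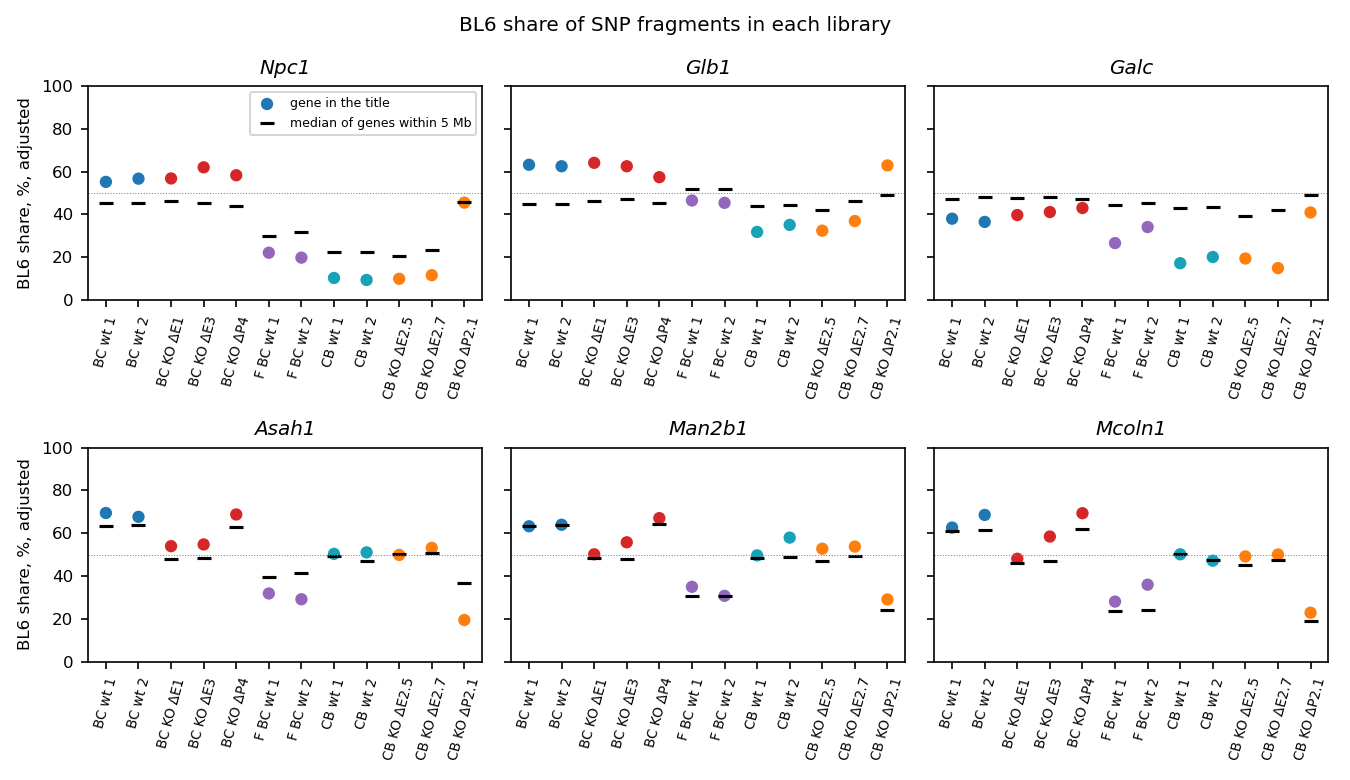
Adjusted BL6 share of SNP fragments, in percent, of 6 members in each library (points coloured by group) with the median of the genes within 5 Mb (dash) and a dotted line at 50%. Clone ΔP2.1 lies apart from CB wt, ΔE2.5 and ΔE2.7 in all 6 panels, and ΔE1 and ΔE3 lie below BC wt and ΔP4 for the 3 chromosome 8 genes in the lower row.

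The effect of KO on the balance of maternal to paternal fragments called no member in either cross, in comparisons in which edgeR called 0.00925% of 10807 genes in BC and 0% of 10267 in CB. At an unadjusted p of 0.05, 1 member was higher on the maternal allele in each cross, which is BL6 in BC and cast in CB. They were Hexa in BC (log2 0.40 ± 0.12, adjusted p = 0.785; 3.04% of all genes were higher at that p) and Ctsb in CB (0.25 ± 0.08, adjusted p = 1; 1.21% of all genes), and 0 were lower (2.29% and 1.3% of all genes). Without ΔP4, Asah1, Man2b1 and Lamp1, all on chromosome 8, were called lower on the BL6 allele in BC KO (4.71% of all genes were called in either direction). The clones left were ΔE1 and ΔE3, whose BL6 share on that chromosome was lower than in BC wt. For Npc1 in CB the estimate, maternal cast over paternal BL6, was -1.06 ± 0.95 with all clones (adjusted p = 1) and -0.14 without ΔP2.1.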

How the data were processed

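Total RNA of 12 ES cell samples was enriched for mRNA, and libraries were made with a TruSeq V2 kit, which does not keep strand. According to the study's methods, 75 bp single-end reads were mapped with TopHat and bowtie (Bowtie2 2.2.5 in the submitters' processing notes) to mm10 and to a pseudo-cast genome. The authors deposited estimated counts per gene: fragments on either genome, and fragments carrying BL6 or cast SNPs. Estimated counts were rounded. Depth is 49975599 to 89070402 fragments; Wilson intervals (95%) cover counting error only.

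Groups came from the labels. A gene entered a comparison when any of its samples exceeded 1 TPM, and was tested with edgeR 4.0.16 (TMM, quasi-likelihood, Benjamini-Hochberg over all genes tested), called at FDR 0.05 and 1.5-fold. Errors of log2 differences are standard errors derived from the F statistic. DESeq2 1.42.0, other scalings, filters and samples left out were alternatives. Alleles were tested in edgeR with a sample block and autosomal allele totals as library sizes. The genes of the off-target deletion were left out in BC. Locations and lengths came from GENCODE (GRCm38), which matched 23310 of 24346 genes. In 10 members, exons overlap another counted gene (Sgsh, Idua, Hexa, Glb1, Arsa, Ctsa, Ctsb, Ctsz, Lamp1 and Cln3), and their counts may include its reads.

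The members and all lists were chosen with earlier results of these data known. Named were members called in any comparison, the 5 with the smallest unadjusted p in each KO comparison and the 4 in each other comparison, a fixed set (Cln3, Mcoln1, Lamp1, Npc1, Ctsb, Ctsd and Hexa), and from each other list those called or else the 2 with the smallest p, except 1 result that is not reported here. Further genes were chosen after their values were seen. No 2 libraries were duplicates: counts of replicates differed by a mean chi-square per gene of 15.9 or more, although the median was 0.699 for CB wt (1.88 and 2.79 for the other wt pairs). The fits were also run on simulated data with 200 genes changed by 1.5 on the log2 scale and a fixed dispersion (extra variance between libraries) of 0.02. There edgeR recovered 99.5% of 200 in the BC design (13808 genes) and 98% in the CB design (13801 genes). The simulation did not model the spread between real KO clones (median chi-square per gene 7.27 to 18.9). It therefore does not give the power to call a member here.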

Additional observations from a re-analysis of the deposited data

Results flagged for a closer look

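For 4 of the 31 lysosomal genes every BC KO clone lay above the BC wt libraries and every CB KO clone below the CB wt libraries. Naglu had a log2 difference between the crosses of 2.24, which was not tested because Naglu was chosen for this pattern. For Gla the difference was 0.30 (adjusted p = 0.374 by edgeR), for Arsa 0.92 (adjusted p = 0.194) and for Ctsa 0.38 (adjusted p = 0.247), none past the threshold. The pattern was found in 4.77% of the 13305 genes tested in both crosses. No group had enough libraries for a test of single outlying samples.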

How the results depend on the processing

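Of 184 recomputed counts and medians, 157 stayed within 1.5 times the count or within the spread between libraries. DESeq2 called 3 members in CB (Arsb, Hexa and Asah1) and 1 in the difference between crosses (Sgsh), and over all genes 155 higher and 105 lower in BC and 161 and 333 in CB, where edgeR called 1 and 3, and 0 and 0; pooling the variance over all 12 samples gave 23 and 31, and 28 and 26. The cause was not tested. The median between female and male BC wt was 0.44 with library size alone, 0.40 with a minimum of 5 TPM and 0.53 without the members on chromosome 8. The median between BC wt and CB wt was -0.41 with library size alone, -0.37 with no filter, -0.36 with a minimum of 5 TPM, -0.37 with all 12 samples in the variance estimate, -0.42 with fragments on the BL6 genome and -0.41 without chromosome 8. The exclusion of chromosome 8 members was chosen after seeing the data. TMM over allelic libraries called 10 members in the allele comparison, with a median of 0.08; over all genes it called 1706 higher and 1379 lower against 1243 and 2011.

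With each library left out in turn, members called in CB KO ranged from 0 to 3 and their median from -0.33 to -0.16, the count of 3 coming without ΔP2.1, where edgeR also called 361 genes higher and 566 lower. The median ranged from 0.02 to 0.18 in BC KO, from 0.26 to 0.46 for the difference between crosses, from 0.36 to 0.43 for the female line and from -0.39 to -0.36 for BC wt against CB wt. For alleles in wt it ranged from -0.12 to -0.08 and for alleles by KO in CB from -0.06 to 0.03 (-0.03 without CB wt replicate 1); members called for alleles by KO in BC ranged from 0 to 3, the 3 without ΔP4. Where an arm kept 1 library, that library was assumed to vary like the other group. The 608 recomputed values covered the members named for each comparison and Naglu. Of them 10 fell short of the threshold under an alternative and 11 passed it. No named member other than Naglu changed sign. The untested allele by KO value of Naglu in BC was -0.14 with all libraries. It ranged from -0.36 to 0.11 with each library left out in turn. Members not named there did change sign in BC, where 16 of 30 instead of 23 were above 0 without ΔP4.

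The replicate block left 15 members called between female and male wt and gave 9 between BC wt and CB wt, with medians close to those without it. The deviations of same-numbered libraries correlated at 0.17 and -0.01 over genes, with 2 pairs each. So few pairs cannot show whether same-numbered libraries were handled together. No paired analysis was possible for KO against wt because the clones carry names, not numbers. Depth limits the allele shares most: Naglu had as few as 19 SNP fragments.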
